A study of Mus musculus with 2 samples.

Results

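The clustered protocadherins are 58 genes that lie in 3 adjoining groups on mouse chromosome 18, called the alpha, beta and gamma clusters. They were taken by symbol, matched through the Ensembl identifiers in the gene tables, and every gene that carried a Pcdha, Pcdhb or Pcdhg name of this kind was kept. This gave 14 alpha, 22 beta and 22 gamma genes among 43346 mouse genes in the tables. No measured level entered the choice. Total RNA was sequenced from the neural tube, the embryonic forerunner of the brain and spinal cord, in strain B6NCrl at embryonic day 12.5. There was 1 group with 2 biological replicates and no mutation or treatment. Replicate 1 was a pool of 120 embryos and replicate 2 a pool of 88, each of mixed sex, and 10 ng of RNA went into each library. Both pools carry the same donor identifier, so the spread between them is that between 2 pools and not between animals. With 1 group no test between conditions was possible, and each difference between clusters is set against the difference between the libraries.

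Clustered protocadherins are cell surface proteins of the cadherin superfamily, best known from neurons. Each gene has its own promoter and a large first exon, called the variable exon, that encodes the extracellular cadherin repeats, the membrane span and a short cytoplasmic stretch. In the alpha and gamma clusters this exon is spliced to constant exons that all genes of the cluster use, so the proteins share a common cytoplasmic end. Beta genes have no such constant exons. A neuron usually expresses a limited set of these isoforms, chosen promoter by promoter with the help of CTCF and cohesin, and the proteins bind their own kind on touching membranes. This serves self-avoidance of neurites, neuronal survival and the tiling of axons. The C-type genes at the ends of the alpha and gamma clusters (Pcdhac1, Pcdhac2, Pcdhgc3, Pcdhgc4 and Pcdhgc5) are regulated differently from the rest.

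All 58 genes lie on the plus strand, between positions 36930184 and 37841873 of assembly GRCm38 (mm10), a span of 911.7 kb. The alpha cluster runs from 36930184 to 37187661, the beta cluster from 37264938 to 37524479 and the gamma cluster from 37661793 to 37841873. The alpha constant exons are at 37156155 to 37156213, 37159265 to 37159353 and 37184946 to 37187657, and all 14 alpha genes use them. The gamma constant exons are at 37825021 to 37825079, 37833265 to 37833353 and 37839903 to 37841873, and all 22 gamma genes use them. The symbol Pcdha11 stands for 2 neighbouring genes in the annotation used for names. The first, which begins at 37005203, is called the upstream Pcdha11 entry here, and RefSeq places the start of Pcdha10 in its first exon. The second, which begins at 37010712, is called the downstream Pcdha11 entry and matches Pcdha11 of RefSeq.

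The gamma cluster supplied most of the clustered protocadherin RNA of the E12.5 neural tube. Levels are TPM, a transcript abundance corrected for length and depth. The gamma genes summed to 163.5 TPM in replicate 1 and 179.6 in replicate 2, which was 72.1% ± 0.577 (SD, n = 2) of the TPM of all 58 genes. The beta genes summed to 35.4 and 37.2 TPM, a share of 15.3% ± 0.371. The alpha genes summed to 29.2 and 31.0 TPM, a share of 12.6% ± 0.206. The order of the cluster sums, gamma above beta above alpha, was the same in both libraries. In CPM, which scales counts for depth but not for length, alpha held 14.9% and beta 13.9%, so the order of these clusters depended on the length correction. In a bulk sample fewer cells that express a gene and less RNA per cell cannot be told apart, so these sums do not say how many neurons used a cluster.

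A typical gamma gene also stood above a typical alpha or beta gene. The median gamma gene was at 4.85 and 5.25 TPM in replicates 1 and 2, the median alpha gene at 1.97 and 2.23, and the median beta gene at 1.34 and 1.61. On the log2(TPM + 1) scale the gamma median exceeded the alpha median by 0.96 ± 0.02 and the beta median by 1.29 ± 0.05 (SD, n = 2). The alpha median exceeded the beta median by a smaller 0.32 ± 0.02. Each of these differences between cluster medians was larger than its own spread between the libraries. Beta, with 22 genes to the 14 of alpha, thus ranked above alpha by its sum and below it by its median. The ranges of single genes did overlap. In both libraries 14 of the 22 gamma genes were above the highest alpha gene, and 12 were above the highest beta gene. Of the 19 gamma genes that are not C-type, 12 were above every alpha gene and 10 above every beta gene.

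**Figure D1:**
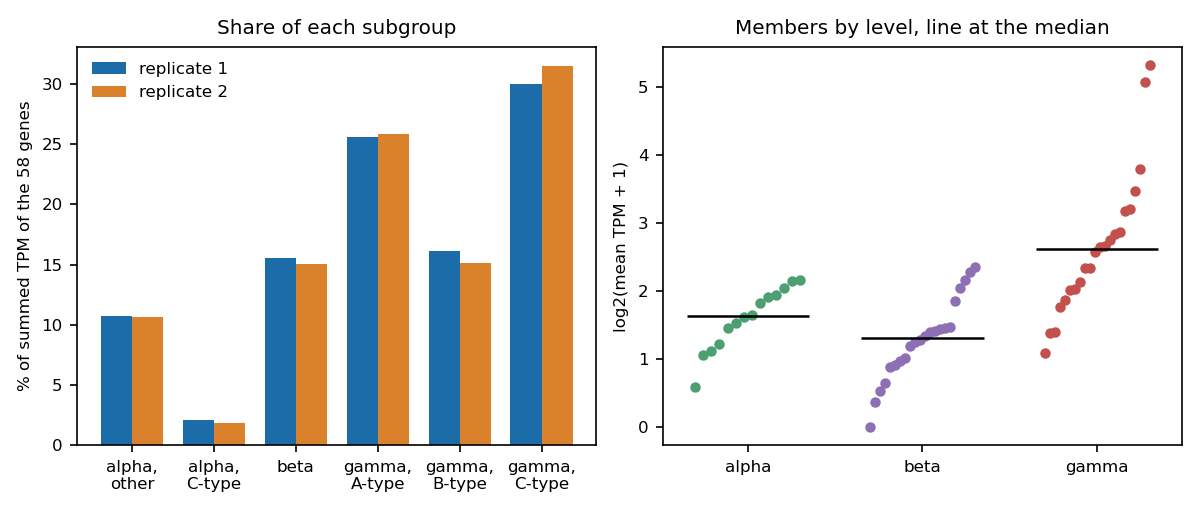
Left, the share of the summed TPM of the 58 genes (y axis, %) held by each subgroup in replicate 1 (blue) and replicate 2 (orange); right, each gene's mean level as log2(mean TPM + 1), sorted within its cluster, with a line at the median. The 3 gamma C-type genes alone hold 30.7% on average, beside 27.9% for alpha and beta together, but 23.1% beside 31.0% when the mainly constant transcript of Pcdhgc4 is left out, and the highest gamma points lie far above the other clusters.

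Most of the genes were detected, meaning at 1 TPM or more in both libraries. This held for 48 of 58 genes, while 62.1% of all protein-coding genes in the tables were detected by the same rule. All 22 gamma genes passed, with 12 of 14 alpha genes and 14 of 22 beta genes. The 6 genes under the limit in both libraries were 1 alpha gene and 5 beta genes, and 4 others (1 alpha and 3 beta) passed in 1 library only. The levels were low for detected genes. The median detected protein-coding gene was at 21.4 TPM, and Pcdhgc3 and Pcdhgc4 were the only members above it. Pcdhgc4 was so only with its mainly constant transcript, without which it was at 8.52 and 9.51 TPM. Near the limit, Pcdha8 passed with 1.13 and 1.05 TPM in replicates 1 and 2. Pcdhb11, at 1.12 and 0.93 TPM, and Pcdhb18, at 1.11 and 0.80 TPM, passed in replicate 1 only. The lowest gamma gene, Pcdhgb8, was just above the limit with 1.11 and 1.12 TPM.

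Within the gamma cluster the C-type gene Pcdhgc3 was the highest, and the deposited level of Pcdhgc4 came next to it. Pcdhgc3 (ENSMUSG00000102918, 37806364 to 37841873) had the highest level of all members, with 35.8 TPM in replicate 1 and 42.1 in replicate 2, or 38.9 ± 4.48 (SD, n = 2). It rested on 3202 and 3924 expected counts. Pcdhgc3 encodes a broadly expressed isoform known for a role in dendrite branching of cortical neurons. Pcdhgc4 (ENSMUSG00000023036, 37815079 to 37841873) followed with 30.7 and 34.6 TPM, or 32.6 ± 2.77. Most of this was assigned to Pcdhgc4-203, a transcript made almost wholly of the exons that gamma genes share, and without it Pcdhgc4 was at 8.52 and 9.51 TPM, below Pcdhgb6 and Pcdhga11. The Pcdhgc4 protein is known to be required for the survival of inhibitory neurons. Pcdhgc5, the last gene of the cluster, was near the bottom with 1.91 and 1.37 TPM, or 1.64 ± 0.382. Pcdhgc5 is known mainly from the postnatal brain. The 3 gamma C-type genes summed to 68.4 and 78.1 TPM, which was 42.6% ± 1.16 of the gamma cluster, or 33.5% ± 1.13 without Pcdhgc4-203 (its reads left out and not reassigned).

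The other 19 gamma genes fall into an A and a B family by sequence, and genes of both families are interspersed along the chromosome. Pcdhgb6 led them with 12.7 and 13.1 TPM in replicates 1 and 2. Pcdhga11 came next with 9.94 and 10.2 TPM. Like the other A and B genes, these encode isoforms that single neurons use in differing sets. Pcdhga7 stood at 7.93 and 8.55 TPM and Pcdhgb7 at 7.99 and 8.10. Their order exchanged between the libraries, so these neighbours in level did not differ beyond their spread. The lowest was Pcdhgb8, which the annotation calls a polymorphic pseudogene. Pcdhga1, the first gene of the cluster, followed from below with 1.34 and 1.88 TPM. The remaining genes lay between 2.21 and 6.07 TPM in replicate 1 and between 2.59 and 6.74 TPM in replicate 2. The 12 A genes had a median of 4.97 and 5.64 TPM, and the 7 B genes one of 4.52 and 3.63. On the log2(TPM + 1) scale this A over B difference was 0.11 in replicate 1 and 0.52 in replicate 2. Its mean of 0.32 ± 0.29 was close to the spread between the libraries.

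Alpha genes were more even, and none was high. Pcdhac2, the last gene of the cluster, led with 3.38 and 3.56 TPM in replicates 1 and 2, or 3.47 ± 0.127 (SD, n = 2). Pcdhac2 is known for the tiling of serotonin axons. Pcdha7 was at 3.27 and 3.59 TPM and the downstream Pcdha11 entry at 2.64 and 3.61. The 3 leading genes did not differ beyond their spread, since the downstream Pcdha11 entry was the highest of them in replicate 2 and the lowest in replicate 1, where Pcdha9 also exceeded it with 2.88 TPM. The other C-type gene, Pcdhac1, had 1.33 and 1.02 TPM, more than only 2 alpha genes in each library. Pcdha1, the first gene of the cluster, was the lowest with 0.53 and 0.47 TPM. Pcdha8 was next by mean, with the values given above, and in replicate 2 Pcdha4 and Pcdhac1 were lower than it. The 3 highest genes held 33.7% ± 1.47 of the alpha TPM, where equal levels of 14 genes would give 21.4%. The same share was 32.4% ± 1.21 in beta and 49.2% ± 1.10 in gamma (41.8% ± 0.665 without Pcdhgc4-203), where equal levels of 22 genes would give 13.6%. The coefficient of variation across genes was 38.6% and 48.9% in alpha, 71.8% and 68.0% in beta, and 119% and 126% in gamma, in replicates 1 and 2.

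Beta genes ranged from nothing counted to levels that stayed under the gamma median in both libraries. Pcdhb17 was the highest by mean with 3.87 and 4.37 TPM in replicates 1 and 2. Pcdhb7 had 3.87 and 3.84 TPM, and Pcdhb20 had 4.04 and 2.94. The order of these 3 genes differed between the libraries, so they are not ranked. All encode beta protocadherins, which lack the common cytoplasmic end of the alpha and gamma proteins. Pcdhb1, the first gene of the cluster, had 0 counts in both libraries. A count of 0 allows up to 3 counts, or 0.0949 and 0.0895 CPM of mouse gene counts, which covers counting error only. Pcdhb13 was the next lowest with 0.31 and 0.27 TPM, on 22 and 20 counts. Pcdhb22, the last gene of the cluster, was at 1.76 and 1.69 TPM.

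Level followed position along a cluster weakly or not at all, by rank correlation, and no test of it was run. The first gene was the lowest of its cluster in alpha (Pcdha1) and beta (Pcdhb1) in both libraries. In gamma the first gene, Pcdhga1, was second lowest in replicate 1, and in replicate 2 Pcdhgb8 and Pcdhgc5 were lower. The last gene was high in alpha (Pcdhac2), middling in beta (Pcdhb22) and low in gamma (Pcdhgc5). Spearman's rho between position and TPM was 0.381 and 0.393 in alpha (14 genes), 0.173 and 0.028 in beta (22 genes), and 0.260 and 0.204 in gamma (22 genes), in replicates 1 and 2. These values describe genes of 1 library that share their reads and depth. Without the C-type genes rho was 0.441 and 0.503 in alpha (12 genes) and 0.214 and 0.163 in gamma (19 genes). In beta it depended on the unit. It was 0.403 and 0.247 with CPM, and CPM also went with transcript length (rho 0.373 and 0.312).

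Splitting each cluster into 3 stretches showed where the levels lay. Among the alpha genes that are not C-type, the last 4 genes (Pcdha9 to Pcdha12) had a median of 2.54 and 2.95 TPM in replicates 1 and 2. The first 4 had 1.89 and 1.56 TPM and the middle 4 had 1.84 and 1.98. The stretch next to the C-type genes thus had the highest alpha median in both libraries. In beta the middle stretch was the low one, with a median of 0.58 and 0.91 TPM for Pcdhb9 to Pcdhb15. Pcdhb1 to Pcdhb8 had 1.45 and 1.69 TPM, and Pcdhb16 to Pcdhb22 had 1.73 and 1.69. All 6 genes from Pcdhb10 to Pcdhb15 missed the detection limit in at least 1 library. In gamma, the stretch from Pcdhgb6 to Pcdhga12, next to the C-type genes, had the highest median at 7.03 and 7.28 TPM. The stretch from Pcdhga1 to Pcdhga5 had 4.79 and 5.50 TPM, and that from Pcdhga6 to Pcdhga9 had 4.22 and 3.93.

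Neighbouring genes often differed sharply. Among adjacent genes of the gamma cluster, 10 of 21 pairs differed by more than 2-fold in the same direction in both libraries, compared with 4 of 13 in alpha and 4 of 20 in beta. The beta count leaves out the pair with Pcdhb1, which had 0 counts. With Pcdhb1 at its deposited upper bounds of 0.0586 and 0.0563 TPM, 5 of 21 beta pairs differed in this way. Pcdhgb8 had 0.112 and 0.110 times the level of Pcdhga11 before it, and Pcdhga12 after it had 5.47 and 5.77 times the level of Pcdhgb8. Pcdhgb6 had 5.76 and 5.05 times the level of Pcdhga9. Single low genes were thus set between high ones and the reverse, with first exons a few kilobases apart. At the border of the C-type genes Pcdhgc3 had 5.89 and 6.52 times the level of Pcdhga12. Pcdhgc5 had 0.062 and 0.040 times the level of Pcdhgc4, or 0.224 and 0.144 times its level without Pcdhgc4-203. In alpha, Pcdha8 had 0.346 and 0.292 times the level of Pcdha7, and in beta, Pcdhb18 had 0.287 and 0.183 times that of Pcdhb17.

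**Figure D2:**
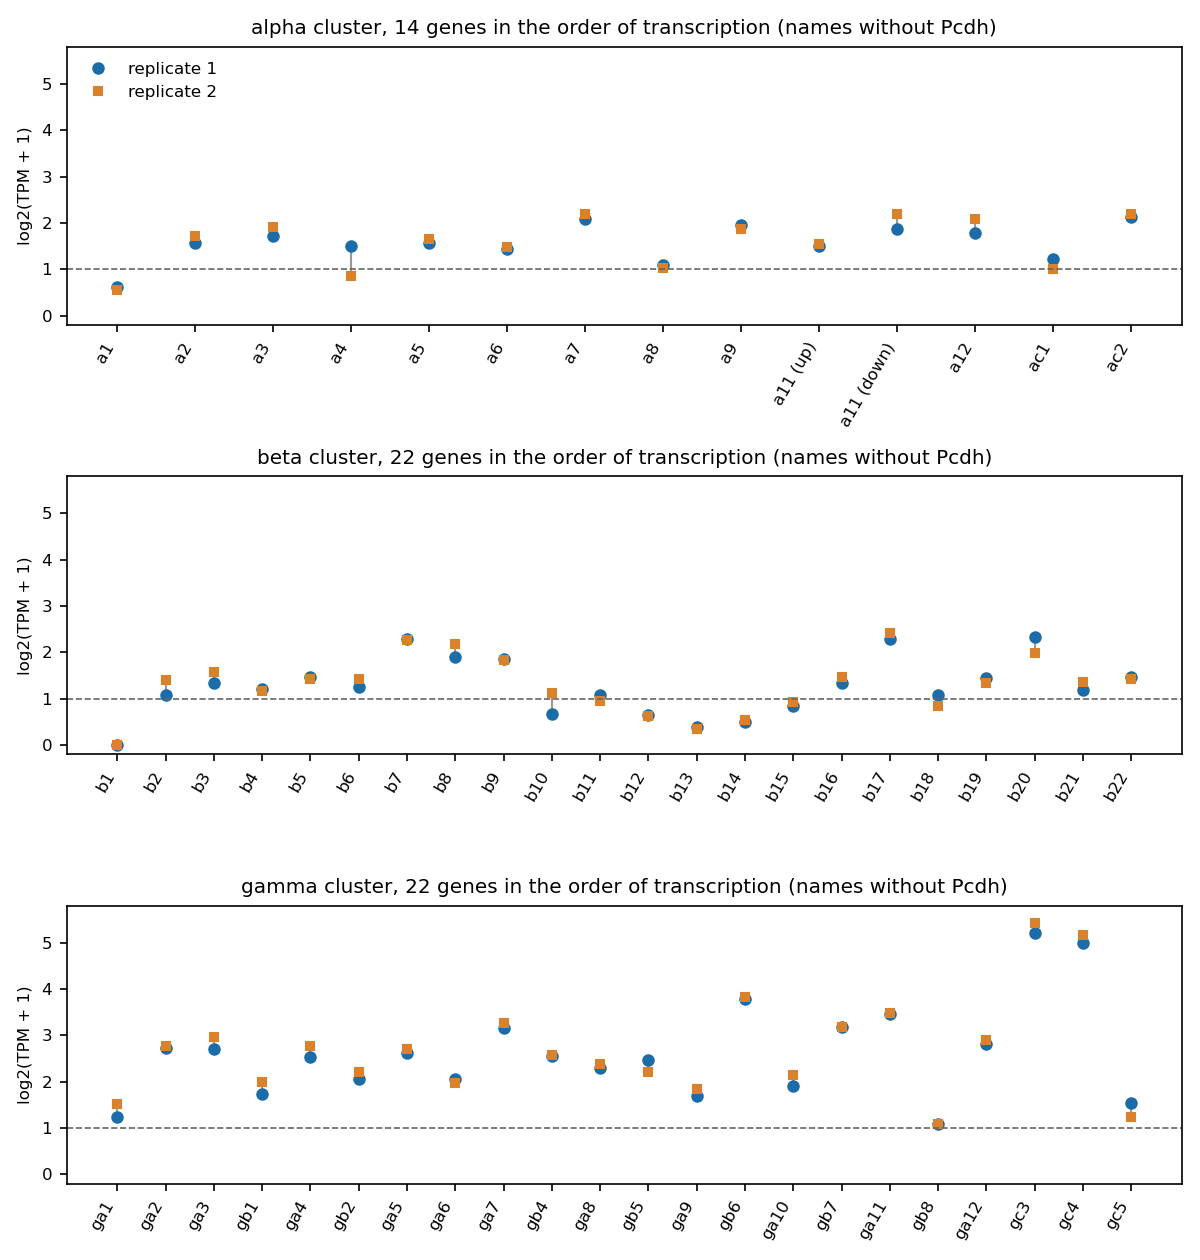
Level of each gene as log2(TPM + 1) (y axis) in the order of transcription (x axis) in the alpha, beta and gamma clusters, with circles for replicate 1, squares for replicate 2 and a dashed line at 1 TPM. The first alpha and beta genes sit lowest in their clusters, Pcdhb10 to Pcdhb15 form a low stretch, and Pcdhgc3 and Pcdhgc4 have the highest points, with Pcdhgc4 plotted with its mainly constant transcript (without it, 8.52 and 9.51 TPM).

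The constant exons bear on how well reads could be told apart. The annotation gives constant exons of 59, 89 and 2712 nucleotides in alpha and of 59, 89 and 1971 in gamma. Of all 100-nucleotide windows of a transcript that holds its variable exon and the constant exons, a median of 54.7% occurred in another member in alpha and 44.1% in gamma. In beta the median was 0.1%. Of the windows of such transcripts, a median of 11.5% in gamma and 1.6% in alpha also occurred in genes that are not members. A read that lies in a constant exon thus does not name its gene, nor in gamma always its cluster. The deposited counts divide such reads by a model. No alpha or gamma gene had a whole-number count (within 0.005) in either library, while 14 and 11 of 22 beta genes had. The deposited SD of the count, as a percent of the count, had a median of 5.94% and 5.68% in alpha, 0% and 0.12% in beta, and 4.10% and 4.19% in gamma. The levels of alpha and gamma genes thus carry an error of assignment that beta levels mostly lack.

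Pcdhgc4 was the gene whose rank rested most on constant exons. Its leading transcript, Pcdhgc4-203, is 2272 nucleotides long, and 2119 of these are constant exons. It has 153 nucleotides of its own, and 93.1% of its windows occur in other members. Pcdhgc4-203 took 22.2 and 25.1 TPM in replicates 1 and 2, which was 72.2% and 72.5% of the gene. The full transcript, Pcdhgc4-201, which holds the variable exon and the constant exons, took 2.37 and 2.09 TPM. A transcript without any constant exon, Pcdhgc4-202, took 6.15 and 7.42 TPM. Without Pcdhgc4-203, Pcdhgc4 was at 8.52 and 9.51 TPM, or 9.01 ± 0.700 (SD, n = 2), and ranked 4th in the gamma cluster in both libraries. Pcdhgc3 did not share this. Its full transcript, Pcdhgc3-201, took 33.0 and 39.4 TPM, or 92.3% and 93.5% of the gene, and 44.1% of its windows occur in other members.

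Most other gamma RNA was assigned to transcripts with the constant exons. Leaving Pcdhgc4 aside, transcripts that touch all 3 constant exons and hold at least 500 nucleotides outside them made up 92.1% ± 0.112 (SD, n = 2) of gamma TPM. Those with no constant exon made up 7.93% ± 0.112. In alpha the first kind made up 89.5% ± 3.03. In some gamma genes transcripts without the constant exons took a larger part. In Pcdhga12 the transcript Pcdhga12-202, which lacks the constant exons, took 65.8% and 59.2% of the gene. In Pcdhga9 the transcript Pcdhga9-202, also without them, took 64.2% and 58%. The annotation lists both as retained introns, in which the first exon runs on into the sequence after it. In Pcdhgb4 the transcript Pcdhgb4-201, also without constant exons, took 53.2% and 47.8%. In Pcdhgc5 a retained-intron form that touches all 3 constant exons, Pcdhgc5-202, took 51.4% and 65.1%. The leading transcript was the same in both libraries in 18 of the 21 genes with several transcripts. It differed in Pcdha4, the downstream Pcdha11 entry and Pcdhgb4.

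**Figure D3:**
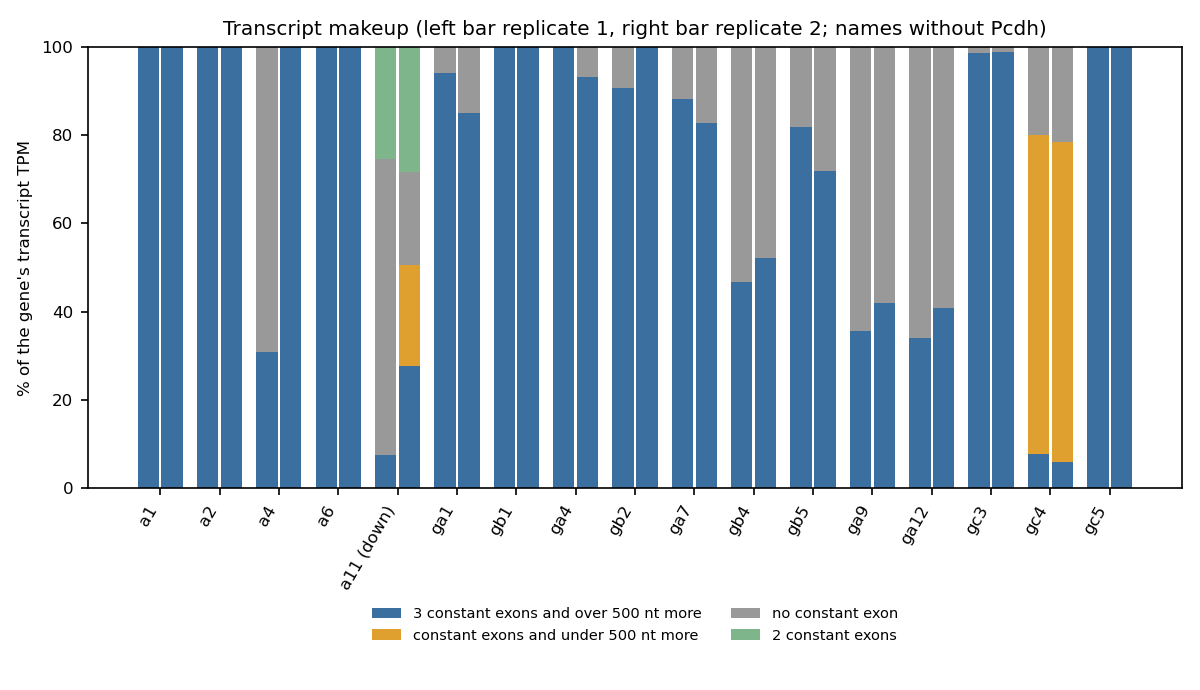
Percent of each gene's transcript TPM (y axis) by kind of transcript in alpha and gamma genes with several transcripts (x axis), with the left bar for replicate 1 and the right bar for replicate 2. Pcdhgc4 is mostly a transcript of constant exons with under 500 nucleotides more (72.2% and 72.5%), and Pcdhga9 and Pcdhga12 are mostly transcripts without constant exons.

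The levels of the members were close in both pools. Spearman rho between the libraries was 0.963 over the 58 genes, and 0.904 in alpha, 0.937 in beta and 0.983 in gamma. Among 50 members at a mean level of 1 TPM or more, 35 were higher in replicate 2 and 15 were lower on the log2(TPM + 1) scale. Of all genes with such a mean, 58.5% were higher in replicate 2, and of protein-coding genes 60.7%. By cluster, 19 of 22 gamma genes were higher in replicate 2, with 9 of 13 alpha genes and 7 of 15 beta genes. The median log2 ratio of replicate 2 over replicate 1 was 0.08 in gamma, 0.06 in alpha and -0.01 in beta, beside 0.03 over all genes. None of the 50 members differed by more than 2-fold on this scale, which understates differences of low genes. Without the pseudocount Pcdha4, at 1.82 and 0.82 TPM, differed by more than 2-fold. Of all genes with such a mean 1.43% passed 2-fold on the log2(TPM + 1) scale, but only 20 of 13517 protein-coding genes. Most members were at lower levels than a typical detected gene, so these counts do not show whether members stand out. The deposited intervals of the libraries did not overlap for 2 of the 50 members, Pcdhgc3 and Pcdhb20, and for 14.3% of all such genes.

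A few members differed more between the pools than the rest, with genes at a mean of 1 TPM or more described first. Pcdha4 had the largest difference, with 1.82 TPM in replicate 1 and 0.82 in replicate 2 (log2 ratio -0.63). Pcdha4 shares its first exon with Gm42416, an annotated gene that joins this exon to the gamma constant exons, and 3.5% of the windows of Pcdha4-202 occur in no other gene. Gm42416 moved the other way, with 0.43 and 1.30 TPM. Counts of both genes together were 152.4 and 153.1, so the sum of the pair was nearly equal in the pools. The deposited SD of the Pcdha4 count reached 39.0% of the count in replicate 2. Pcdhb20 followed with a log2 ratio of -0.36, on 277.8 and 210.3 counts, and Pcdhgc5 with -0.30. Among the members at a mean of 1 TPM or more, those with the highest ratios were the downstream Pcdha11 entry (log2 ratio 0.34), Pcdhb2 at 1.11 and 1.66 TPM (0.33), and Pcdha12 at 2.43 and 3.24 TPM (0.31). The leading transcript of the downstream Pcdha11 entry was Pcdha11-205 in replicate 1 and Pcdha11-206 in replicate 2. For comparison, the SD of the log2 ratio was 0.28 over 2550 protein-coding genes at 1 to 5 TPM. Except for Pcdha4, the ratios of these members were thus just over 1 SD of genes at similar levels. Below a mean of 1 TPM, Pcdhb10 had a log2 ratio of 0.47, with 0.58 and 1.19 TPM on 31.9 and 67.4 counts, and its deposited intervals did not overlap.

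**Figure D4:**
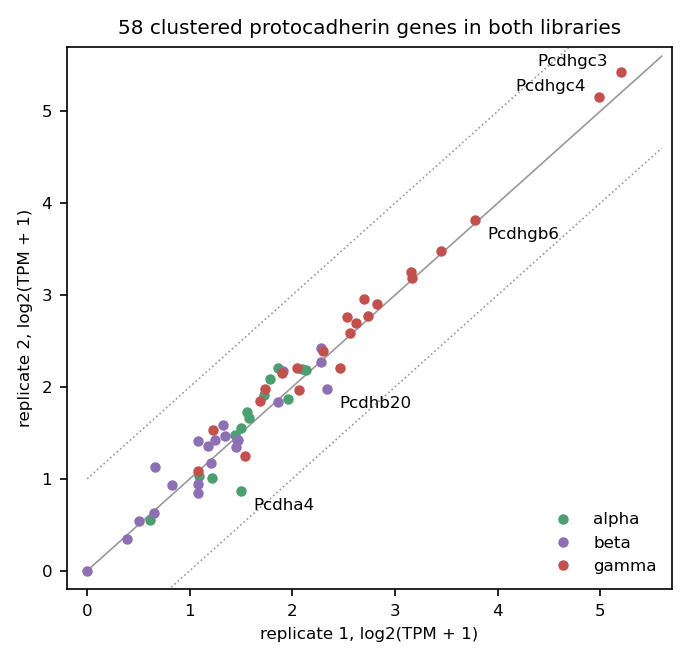
Level of each of the 58 genes as log2(TPM + 1) in replicate 1 (x axis) and replicate 2 (y axis), coloured by cluster, with a solid line at equal levels and dotted lines at a 2-fold difference on this scale. All points lie between the dotted lines, and Pcdha4 (1.82 and 0.82 TPM) lies farthest below the line of equal levels.

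The libraries held 32612423 and 34555002 expected counts in replicates 1 and 2, of which 19111 and 21386 fell on the 58 genes. The counts of the 2 libraries differed by more than sampling noise (chi-square 7.36 per degree of freedom over 17627 genes), so they were kept as separate replicates. Markers of neurons and neural progenitors, which define the tissue, were all detected (5 of 5 each), with medians of 285.4 and 292.3 TPM and of 135.8 and 113.8 TPM. Markers of red cells, mesenchyme, endothelium, skeletal muscle and sensory ganglia were also all detected (5 of 5 each), and none was at 0. Red cell markers had a median of 2131.8 and 1958.6 TPM, above both neural lists. Mesenchyme markers had one of 167.0 and 173.4 TPM, above the progenitor list. The medians were 84.2 and 119.6 TPM for sensory ganglia, 36.9 and 29.6 for muscle, and 11.9 and 13.9 for endothelium. Over all protein-coding genes 62.1% were detected, and 60.7% of those with a mean of 1 TPM or more were higher in replicate 2. Muscle markers summed to 257.0 and 181.2 TPM and sensory ganglion markers to 371.3 and 532.4 TPM. Of these, 0 of 5 and 5 of 5 were higher in replicate 2. The part of these cells in the levels of protocadherins, or in their differences between the pools, was not tested.

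Factors that act on protocadherin promoters were present. A list of 17 regulators was examined, made of CTCF, cohesin subunits and their loaders, DNA and histone modifiers, and other chromatin proteins. All 17 were detected, with a median of 41.1 and 42.5 TPM, and 9 were higher in replicate 2. Of all protein-coding genes 62.1% were detected, and 60.7% of those with a mean of 1 TPM or more were higher in replicate 2. Trim28, a corepressor, was the highest with 318.5 and 328.9 TPM. The DNA methyltransferase Dnmt3a had 141.0 and 118.5 TPM, and Ctcf, the insulator protein that loops promoters to their enhancer, had 103.1 and 97.8. Dnmt3b, the methyltransferase known to act on these promoters in early embryos, was the lowest with 6.11 and 5.48 TPM. Each of the 17 genes was above the median gamma gene in both libraries.

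Genes for proteins that work with protocadherins at the membrane were present too. Of 16 partners in signalling, cleavage and the actin cytoskeleton, 15 were detected and 15 were higher in replicate 2. Their median was 55.6 and 62.5 TPM. For all protein-coding genes the shares were 62.1% detected and, at a mean of 1 TPM or more, 60.7% higher in replicate 2. Rac1, a small GTPase of the actin cytoskeleton, led with 252.6 and 277.5 TPM. Marcks, an actin-binding substrate of protein kinase C, followed with 248.8 and 255.9 TPM. Adam10, the sheddase that cleaves gamma protocadherins, had 75.7 and 87.8 TPM. Ptk2, the focal adhesion kinase that gamma and alpha proteins bind, had 53.8 and 60.3 TPM, while its relative Ptk2b was at 0.69 and 0.72 and was not detected.

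The region also holds 27 other annotated genes, of which 5 were detected. Only 5 of the 27 are annotated as protein-coding, and 1 of these was detected, beside 62.1% of all protein-coding genes. The rest are noncoding genes and pseudogenes, for which no share over all such genes is given here. Taf7, a subunit of the general transcription factor TFIID, lies between the beta and gamma clusters on the minus strand and had 16.3 and 15.1 TPM in replicates 1 and 2. Slc25a2, a mitochondrial carrier beside it, had 0.55 and 0.42 TPM. Gm37013 and Gm37388, annotated as coding genes that span several clusters, had 0 TPM in both libraries. On the minus strand BC037039, which lies over the first exon of Pcdhgc3, had 6.91 and 6.29 TPM. Gm26672, over the stretch from Pcdhga10 to Pcdhga12, had 5.04 and 4.63 TPM, and Gm10544, within the alpha cluster, had 4.44 and 4.54. Of the windows of Pcdhgc3-201, 30.8% lie opposite an annotated gene of the other strand. No source used here gives the strand setting of the counts, so reads of Pcdhgc3 and BC037039 cannot be told apart there. The same limit applies to Pcdhga10-201 (54.3% of windows), Pcdhga11-201 (27.6%) and Pcdha11-205 of the downstream Pcdha11 entry (74.0%). Past the gamma cluster, Rell2 and Fchsd1 overlap on opposite strands. Their counts were not whole, at 562.11 and 610.14 and at 477.89 and 470.86. Within each library the counts of this pair add up to a whole number. The same holds for Hars and Hars2, which overlap on opposite strands before the alpha cluster. Hars had 3371.56 and 3681.22 counts and Hars2 had 1600.44 and 1595.78. Whether reads were divided between strands was not tested further. The fifth detected gene inside the region was 3222401L13Rik, a noncoding RNA just before the gamma cluster, with 1.41 and 1.83 TPM. Outside the clusters, the 5 nearest coding genes on either side were all detected, beside 62.1% of all protein-coding genes. These neighbours ranged from Dnd1, a germ cell RNA-binding protein, with 1.69 and 1.84 TPM, to Hdac3, a histone deacetylase, with 112.9 and 117.6 TPM. Hdac3 was thus well above Pcdhgc3, the highest protocadherin, in both libraries.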

How the data were processed

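Total RNA sequencing of 2 neural tube libraries (1 group, replicate numbers from the labels) was analysed from the deposited gene and transcript tables. Per the deposited read-me text, values come from transcriptome alignments on assembly mm10 with GENCODE M4. No source used here names the program. The authors deposited expected counts (estimated, need not be whole) and TPM, corrected for length and depth per the file headers. Percent values in the deposited transcript tables give a transcript's share of its gene. The deposited bounds of the TPM signal are credibility intervals of unstated level. The title marks the series as superseded, and the later series was not used here.

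Names, exons and coordinates (1-based) came from GENCODE M21 on the same assembly, matched by identifier without version. RefSeq (GRCm38.p6) served to name the double Pcdha11 entry. Python 3.11.15, pandas 2.3.3, numpy 2.4.6 and scipy 1.17.1 were used. Detection meant 1 TPM in both libraries, and ratios used a pseudocount of 1 TPM, which understates differences of low genes. Windows of 100 nucleotides were compared over the M21 transcripts that also occur in the deposited transcript tables. Count floors used 3 counts, and CPM used mouse gene counts as the total. The intervals of the files and the floors cover counting and assignment error only, since the tables carry no molecular identifiers.

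Named with values were the 3 highest and 2 lowest genes of each cluster, its first and last gene, all C-type genes, the 3 largest ratios each way among genes with a mean of 1 TPM or more, the genes next to the detection limit, the 3 highest and the lowest of each list, and coding genes inside the region. Others named (such as Pcdha9, Pcdhb10, Ptk2 and the noncoding genes) were chosen after their values were seen. The members and lists were chosen with earlier results of these data known. No p-value was computed. The ratio step was tested on simulated data with sampling noise only, which is less than the difference between these libraries. Only genes above the level of most members were scored, so the test says nothing of low members.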

Additional observations from a re-analysis of the deposited data

How the results depend on the processing

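Gamma held the largest share and the highest median under every alternative run. In CPM the shares of alpha, beta and gamma were 14.9%, 13.9% and 71.2%, so alpha then stood above beta, and the medians were 6.32, 3.52 and 13.7 CPM. Without the C-type genes the shares were 15.9%, 22.7% and 61.4%, and without transcripts made mainly of constant exons 13.9%, 17.0% and 69.1%. Leaving out the latter transcripts also gave 23.1% for the gamma C-type share, 41.8% for the 3 highest gamma genes and 0.184 for the ratio of Pcdhgc5 to Pcdhgc4. The shares without C-type genes, the values without those transcripts, the bound for Pcdhb1 and the restriction to detected members were chosen after seeing the data. The gamma over alpha difference of medians (log2) was 1.01 in CPM, 1.23 with a pseudocount of 0.1, 0.93 without C-type genes and 0.87 among detected members. The gamma over beta difference was 1.70, 1.71 and 1.14 in CPM, with that pseudocount and among detected members. The alpha over beta difference was 0.69, 0.48 and 0.27 in the same order, and 0.29 with posterior mean TPM. With a limit of 2 TPM, 6 of 14 alpha, 5 of 22 beta and 19 of 22 gamma genes were detected. The share of all protein-coding genes at this limit is not given here, so these counts compare the clusters only. The Spearman correlation of level with position was 0.472 in alpha without C-type genes and 0.404 in CPM, 0.325 in beta in CPM, and 0.189 in gamma without C-type genes. Where a value moved, the cause was not tested.

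With either replicate left out, the shares ranged from 12.5% to 12.8% in alpha, 15.0% to 15.5% in beta and 71.7% to 72.5% in gamma, and no order of the clusters changed. Of 89 alternative values, 57 stayed within the spread between the libraries or within 1.5 times the count. The 57 include every value with 1 replicate left out, which with 2 libraries lies within their spread by construction. None changed sign, but shares, medians and counts cannot do so. No paired analysis was possible because there was only 1 group. Depth limits the genes under 1 TPM in both libraries, which, apart from Pcdhb1, rest on 20 to 82 counts.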
